A study of Vitis rotundifolia with 12 samples.

Results

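The stage by genotype interaction in muscadine pedicels asks, for each gene model, whether the change in RNA level between the pea-size stage and maturity differed between a strongly and a weakly attached genotype. It is the change in S (maturity minus pea-size) minus the change in W, and it uses 12 of the 12 libraries. It was tested for 18439 of 26394 gene models, those with enough counts, and 22431 had at least 1 count. The interaction was called for 423 gene models, which is 2.29% of those tested. A call is an edgeR quasi-likelihood p, adjusted by Benjamini-Hochberg over all gene models tested, of at most 0.05 with a log2 difference of at least 1 in size.

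Pedicels are the stalks that carry the berries, and RNA was sequenced from whole pedicel tissue of field-grown vines, flash frozen at harvest. S is Ga. 6-1-269, labelled strongly attached, and W is Ga. 12-3-22, labelled weakly attached. The 4 groups were S at maturity, S at pea-size, W at maturity and W at pea-size, each with 3 biological replicates. Each attachment phenotype is represented by a single breeding line, so attachment and every other difference between the lines cannot be told apart. A tissue type label reads mature for all libraries, pea-size ones included, and was not used.

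Fruit separate from the pedicel in an abscission zone, a few layers of small cells at the junction with the berry. Separation proceeds as these cells become competent, respond to ethylene, abscisic acid and jasmonate against the restraint of auxin, and then dissolve the pectin and cellulose between them with secreted wall-degrading enzymes. A genotype whose berries stay attached can differ in when or how far any of these steps proceed, and the change over development is the quantity compared between genotypes here. Gene models carry only a chromosome and a running number in the annotation of the cultivar 'Noble', with 0 identifiers found in the reference table of gene names. Results are therefore given by pattern of change, with 4 gene models named, and neither the tissue label nor any pathway could be checked against marker genes. In bulk tissue, fewer cells of a type and less RNA per cell cannot be told apart.

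Reads counted on gene models numbered 4705119 to 21971736 per library. S maturity replicate 1 stood apart from the other libraries. Its Spearman correlation of log2 CPM (counts scaled to a common library total) with the other mature S libraries was 0.817 and 0.836. Between those libraries it was 0.967. S maturity replicate 1 had values of 0.837 to 0.848 with S pea-size, 0.849 to 0.88 with W pea-size and 0.853 to 0.883 with W maturity. Reads on no gene model made up 30.4% of its reads (Wilson 95% interval 30.3% to 30.4%, counting error only), 21.8% in S maturity replicate 2 and 10.6% to 17.6% in the other 10 libraries. A single gene model took 12.3% of its counts and 6.94% in S maturity replicate 2. What sets these libraries apart was not tested, and the calls, their directions and shapes, the sizes of change and the named gene models are also given without S maturity replicate 1. Gap calls, overlaps, shares of variation and changes by direction within a shape are given with all 12 libraries alone.

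Most gene models with a called interaction changed with stage in S and little in W. The median size of the stage change over the 423 was 2.66 on the log2 scale in S and 0.67 in W, against 0.65 in S and 0.48 in W over all gene models tested. The change in S was the larger one in 376 of the 423 (88.9%), compared with 58.4% of those tested. At least a 2-fold change in S with less than that in W was found for 258 (61%), and the same pattern held for 20.5% of gene models tested. Changes of at least 2-fold in opposite directions made up 106 (25.1%, against 5.79% of those tested), of which 41 were up in S and down in W and 65 were down in S and up in W. Changes of that size in the same direction made up 33 (7.8%, against 9.06% of those tested) and changes in W only 17 (4.02%, against 11.6%). The other 9 (2.13%, against 53.1%) had neither.

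The stage change in S was itself called for 371 of the 423, where 8.63% of gene models tested were called. The stage change in W was called for 19, where 0.298% were. These changes make up the interaction, so they describe the called gene models and add no separate test. Of the 423, 186 (1.01% of those tested) had a change in S above that in W and 237 (1.29%) a change below it. With DESeq2's Wald test the interaction was called for 1202 gene models (6.52% of those tested), including 421 of the 423, and more lay above (656) than below (546). The order of the directions also turned with edgeR at an unadjusted p, with 1428 above and 1151 below. It turned narrowly in the 11213 gene models with at least 10 counts in every library, with 205 above and 192 below.

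**Figure D1:**
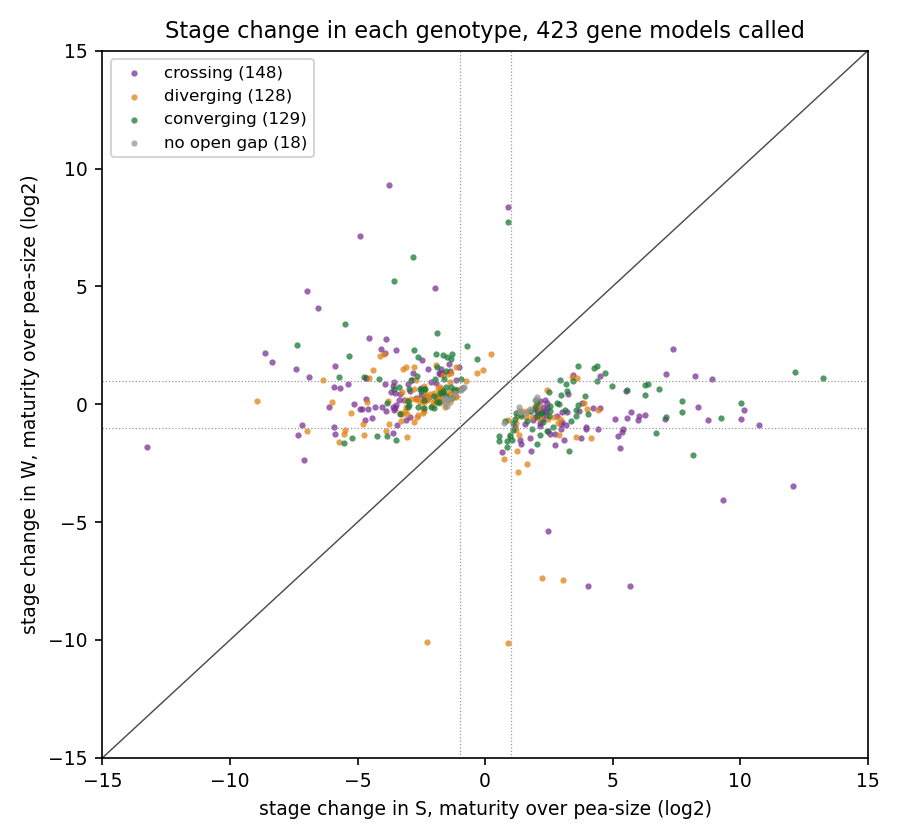
Stage change in S (x axis) and in W (y axis), log2 maturity over pea-size, for the 423 gene models with a called interaction, 1 point each, coloured by shape. Dotted lines mark a change of 1 in size, and points on the diagonal would have the same change in both genotypes. The points spread along the x axis, with a median size of 2.66 in S and 0.67 in W.

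Leaving out S maturity replicate 1 raised the calls to 1955 of 19250 gene models tested (10.2%), 844 (4.38%) with the change in S above that in W and 1111 (5.77%) below it. These included 420 of the 423, all with the same direction. A 2-fold change in S only was again the most frequent pattern, with 1335 (68.3%, against 25.7% of those tested), followed by opposite directions with 331 (16.9%, against 7.17%). The change in S was the larger one in 1741 (89.1%, against 63.1%), and the median size of the stage change was 2.30 in S and 0.51 in W. The SD within groups was taken on log2 (CPM + 1), with CPM scaled by edgeR's TMM factors. Its median over the gene models tested was 0.52 at S maturity, and 0.23 over the 2 libraries left without replicate 1. It was 0.29 at S pea-size, 0.45 at W maturity and 0.53 at W pea-size, with 3 libraries each. A median SD from 2 libraries tends to be lower than from 3 at the same spread, so 0.23 is not directly comparable with the other values. The part of this spread in the number of calls was not tested.

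The shapes behind the difference were read from the gap between the genotypes, the fitted level in S minus that in W on the log2 scale, which counts as open when it is at least 1 in size. In a crossing gene model the gap was open at both stages with opposite signs. In a diverging one it was open at maturity and larger there, and in a converging one it was open at pea-size and larger there. The 3 shapes were about equally frequent among the 423, with 148 crossing (35%), 128 diverging (30.3%) and 129 converging (30.5%). The remaining 18 (4.26%) had no open gap at either stage. This near-equal mix depends on the gap that counts as open: at 0.5 there were 255 crossing, 94 diverging and 74 converging, and at 2 there were 41, 114 and 118. The shape is a description, since the gaps at the 2 stages make up the interaction.

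Crossing was more frequent among the called gene models than among the 7650 tested ones with a log2 difference of at least 1, called or not. There 966 (12.6%) were crossing, 2965 (38.8%) diverging and 2678 (35%) converging. A crossing gene model needs a difference of at least 2 by construction, so a threshold that favours large differences favours this shape too, and nothing is read from the contrast. By sign alone, the genotype with the higher level switched between stages in 337 of the 423 (79.7%), in 4373 of the 7650 (57.2%) and in 38.4% of all gene models tested.

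The median size of the interaction was 4.09 in crossing, 2.59 in diverging and 2.96 in converging gene models (log2). In crossing ones the median gap was 1.95 in size at maturity and 1.91 at pea-size. In diverging ones it was 2.45 at maturity and 0.41 at pea-size, and in converging ones 0.60 at maturity and 2.69 at pea-size. A whole group was at 0 counts for 21 of the 423, 10 of them crossing, and their fitted values depend on the prior count. With these groups put at 3 counts over the group, the median sizes of the interaction stayed at 4.09, 2.59 and 2.96. Among gene models with no group at 0, the interaction reached 13.39 in size. Without S maturity replicate 1 the median sizes of the interaction were 5.09 in crossing, 2.31 in diverging and 2.33 in converging gene models. The median gaps were then 2.36 at maturity and 2.11 at pea-size in crossing, 2.41 and 0.46 in diverging, and 0.53 and 2.20 in converging ones.

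**Figure D2:**
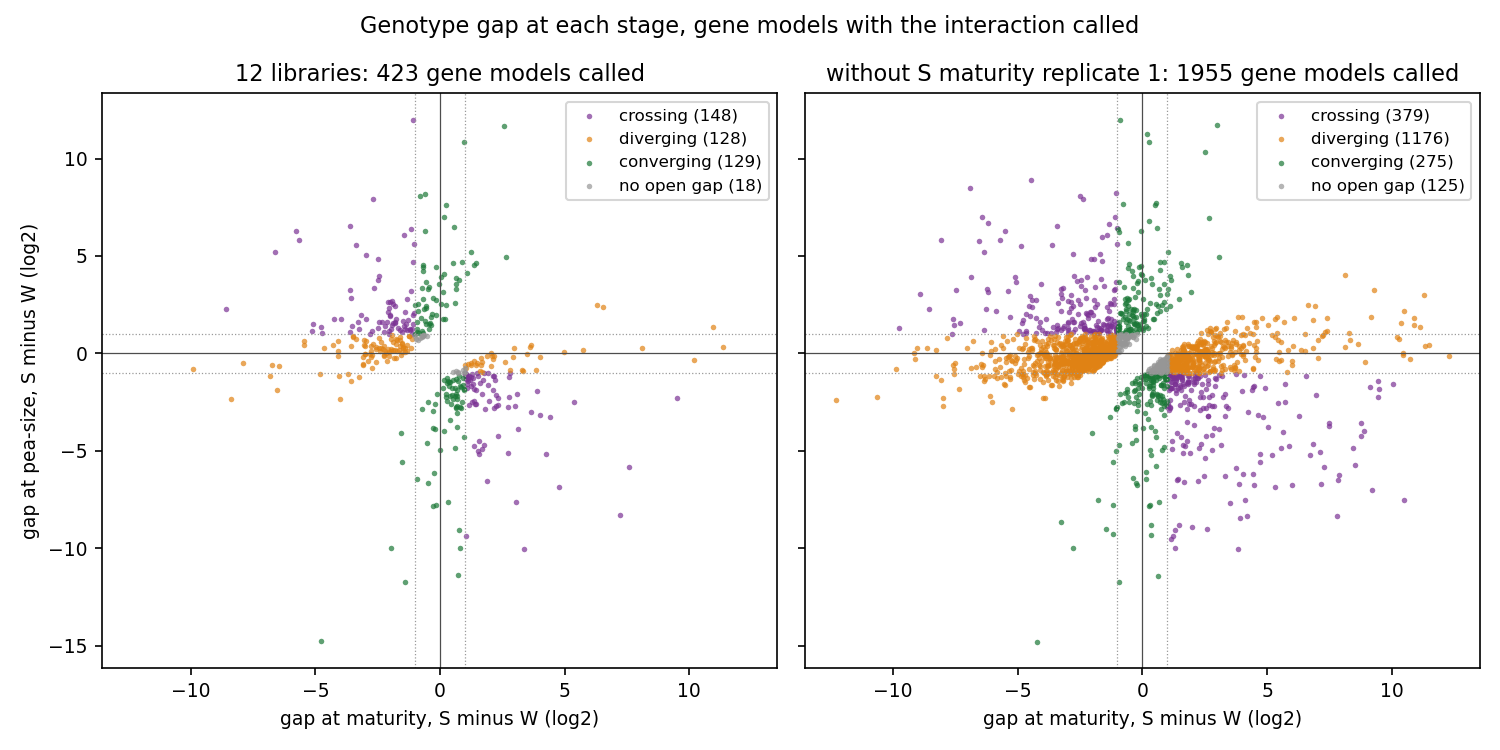
Gap between the genotypes at maturity (x axis) and at pea-size (y axis), fitted log2 level in S minus W, for the gene models with a called interaction, with all 12 libraries (left, 423) and without S maturity replicate 1 (right, 1955). Each point is a gene model coloured by shape, and dotted lines mark an open gap of 1. On the left the shapes hold 148, 128 and 129 gene models, and on the right the diverging ones along the x axis hold 1176.

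Variation between the 4 group means splits into a part due to genotype, a part due to stage and a part due to their interaction. In crossing gene models the median shares were 2.8% for genotype, 30.8% for stage and 62.2% for the interaction. In the same order they were 29%, 21% and 42.1% in diverging gene models, 24.8%, 22.1% and 42.3% in converging ones, and 38.9%, 24.1% and 16.6% over all gene models tested. Gaps of opposite sign leave little difference between the genotypes in the mean of both stages by construction, and the interaction was used to choose these gene models, so the shares are a description.

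Crossing gene models were split evenly by direction, with 73 where the change in S lay above that in W and 75 below. In the 73, the median stage change was 3.22 in S and -0.62 in W. In the 75 it was -3.62 in S and 0.71 in W. In the medians, S passed a nearly level W from below or from above, while 51 of the 148 moved at least 2-fold in opposite directions. The stage change in S was called for 138 of the 148 (8.63% of all gene models tested). The gap was called at maturity for 74 and at pea-size for 73, where 6.59% and 4.98% of all gene models tested were called, at both stages for 33 and at neither for 34. The 3 libraries of S did not overlap the 3 of W at maturity for 118 of the 148 (26.9% of gene models tested), at pea-size for 137 (34.6%) and at both stages for 107 (11.1%).

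Diverging gene models leaned to one direction, with 38 above and 90 below. In the 90, S was 2.45 lower than W at maturity in the median and close to it at pea-size (median gap 0.19), with a median stage change of -2.38 in S and 0.27 in W. In the 38, the median gap was 2.39 at maturity and -0.31 at pea-size, with median stage changes of 2.01 in S and -0.57 in W. Among all tested gene models with a difference of at least 1, the lean was the other way, with 2061 diverging above and 904 below. Without S maturity replicate 1 the called diverging gene models numbered 423 above and 753 below.

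Converging gene models held 67 above and 62 below. In the 67, S lay 0.41 above W at maturity in the median and 2.50 below it at pea-size, with stage changes of 2.89 in S and -0.31 in W. In the 62, S lay 0.35 below W at maturity and 2.99 above it at pea-size, with stage changes of -2.38 in S and 0.65 in W. A 2-fold change in S with less than that in W held for 74 of the 129, opposite changes of that size for 31, and a 2-fold change in W with less than that in S for 10, so the approach came from S in most of them and from W in some. The stage change in S was called for 110 of the 129 (8.63% of all gene models tested) and that in W for 8 (0.298% of all tested).

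**Figure D3:**
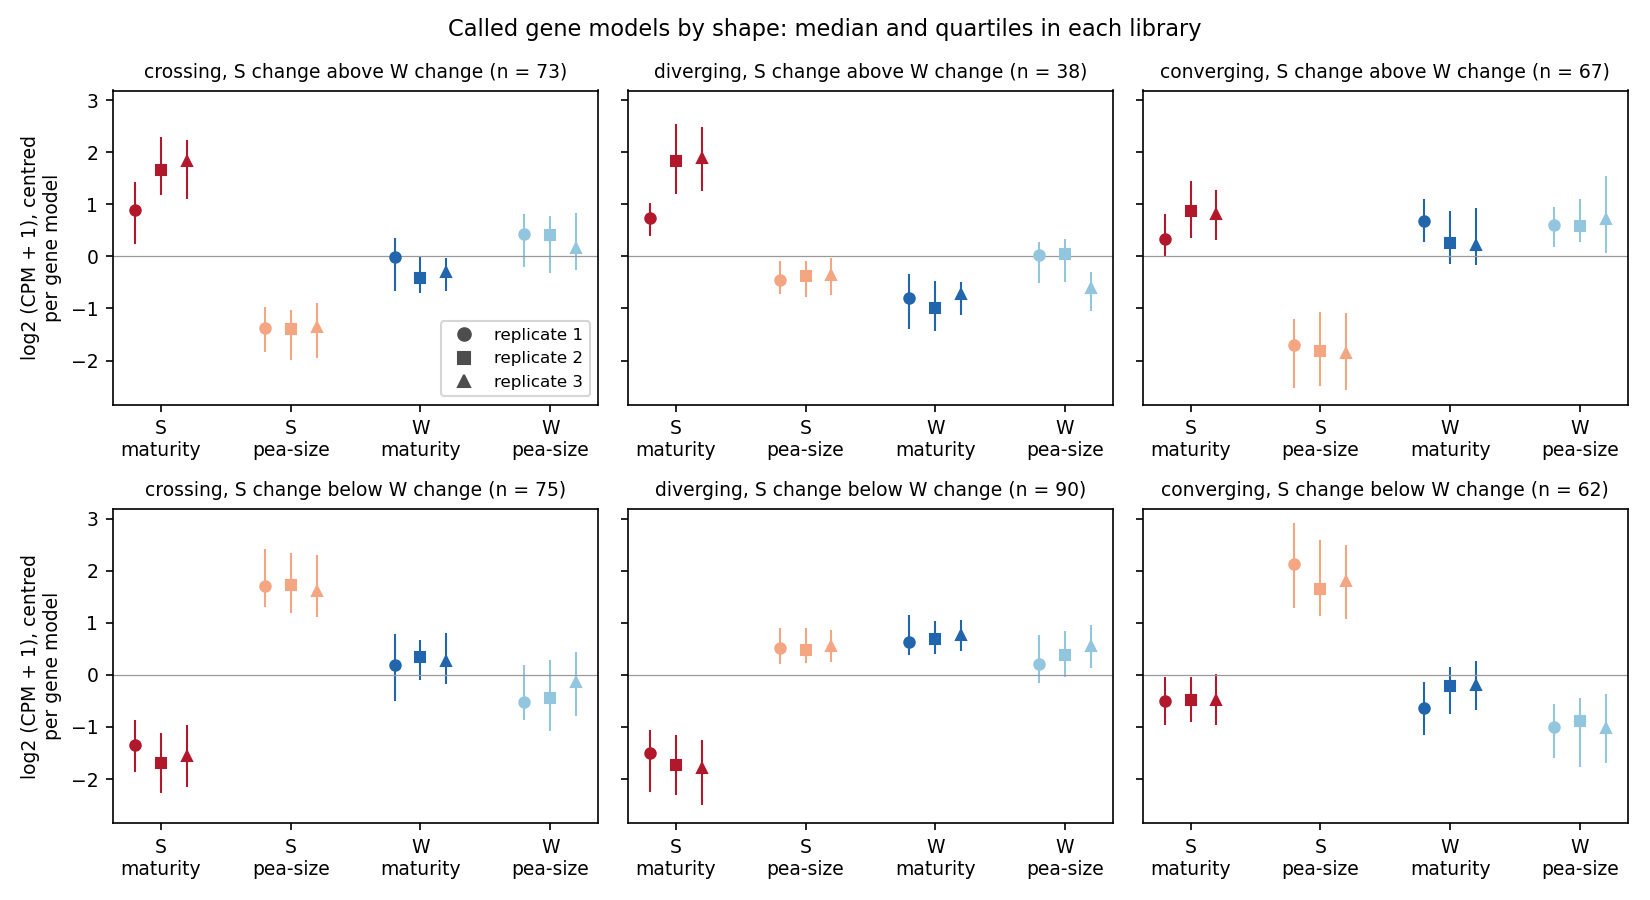
Level of the called gene models in each of the 12 libraries, by shape and direction: log2 (CPM + 1) centred on each gene model's mean over the libraries, with the median as a symbol (by replicate) and the quartiles as a line. S maturity replicate 1 lies nearer to 0 than replicates 2 and 3 in the panels for crossing and diverging gene models and in the one for converging gene models with the change in S above that in W.

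The libraries behind these shapes were compared on log2 (CPM + 1), centred on the mean of each gene model over the 12 libraries. In the 73 crossing gene models with the change in S above that in W, the median was 0.90, 1.66 and 1.84 in S maturity replicates 1, 2 and 3 and -1.37, -1.39 and -1.36 at S pea-size. It was -0.02, -0.41 and -0.30 at W maturity and 0.44, 0.42 and 0.16 at W pea-size. The S stages were far apart and the W stages close, with each S maturity median above and each S pea-size median below those of the W libraries.

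In the 90 diverging gene models with the change in S below that in W, the median was -1.49, -1.73 and -1.79 at S maturity and 0.52, 0.49 and 0.55 at S pea-size. It was 0.63, 0.69 and 0.78 at W maturity and 0.21, 0.38 and 0.55 at W pea-size. The S maturity libraries alone stood apart from the other 9. In the 38 diverging gene models in the other direction the S maturity medians were 0.75, 1.83 and 1.89, so replicate 1 lay between S pea-size (-0.45, -0.38 and -0.35) and the other mature S libraries.

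In the 67 converging gene models with the change in S above that in W, the median was 0.34, 0.88 and 0.81 at S maturity and -1.70, -1.82 and -1.85 at S pea-size. It was 0.69, 0.25 and 0.21 at W maturity and 0.61, 0.58 and 0.72 at W pea-size. The S pea-size libraries stood apart, and S maturity replicate 1 lay below replicates 2 and 3.

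In the 62 converging gene models with the change in S below that in W, the median was -0.49, -0.48 and -0.49 at S maturity and 2.13, 1.65 and 1.81 at S pea-size. It was -0.64, -0.21 and -0.19 at W maturity and -0.99, -0.88 and -1.03 at W pea-size. Here too the S pea-size libraries stood apart from the other 9, and the 3 S maturity libraries were close to each other. The change between any mature and any pea-size library of S lay wholly on one side of that in W for 414 of the 423, in the direction of the interaction. This held in either direction for 10.5% of gene models tested. The 423 were called on these same libraries, so the separation is a description and adds no separate test.

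Without S maturity replicate 1 the mix of shapes moved from near equal to mostly diverging. Of the 1955 called gene models, 1176 (60.2%) were diverging, 379 (19.4%) crossing and 275 (14.1%) converging, and 125 (6.39%) had no open gap. Among the gene models called without that library, its place between the stages of S differed between the shapes. On a scale where the mean of the S pea-size libraries is 0 and the mean of S maturity replicates 2 and 3 is 1, replicate 1 had a median place of 0.10 over 1063 of the 1176 diverging gene models. The place was taken only for gene models with a difference of at least 1 between the ends of the scale. It was 0.57 over 357 of the crossing and 0.82 over 235 of the converging gene models called without it. Among the calls with all 12 libraries the place was alike in the shapes, at 0.84 in crossing, 0.85 in diverging and 0.86 in converging ones. It was 0.85 over 396 of the 423, and 0.46 over 6279 of all gene models tested. These places are descriptions, since the 423 were called with this library in the fit and the ends of the scale are libraries that the calls used.

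The gene models called in both settings mostly kept their shape, with 381 of 420 unchanged. The most frequent move was from converging to crossing, in 22. Leaving out any other single library gave 167 to 589 calls, with crossing at 35.8% to 42.7%, diverging at 26% to 31.2% and converging at 30.1% to 33.9%. Of the 423, 145 were called in all 12 fits with 1 library left out, of which 60 were crossing, 41 diverging and 44 converging.

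**Figure D4:**
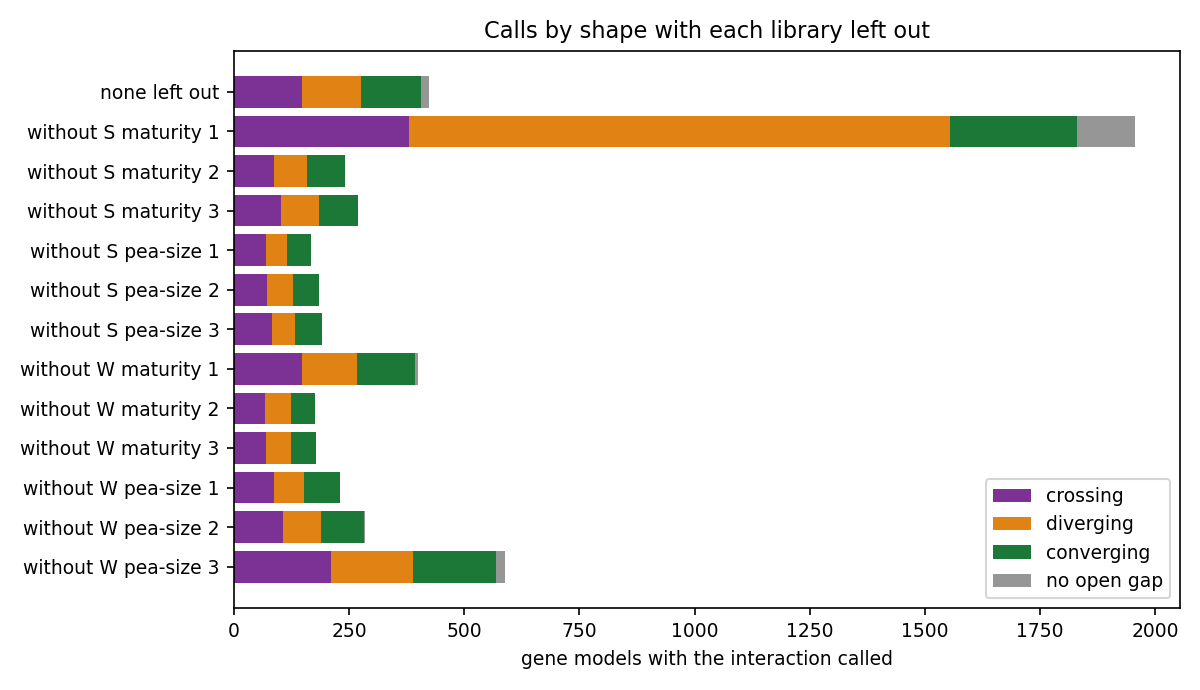
Number of gene models with a called interaction (x axis), split by shape, with all 12 libraries and with each library left out in turn. The bar without S maturity replicate 1 reaches 1955, of which 1176 are diverging, and the others lie between 167 and 589.

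The 4 named gene models show the shapes in single libraries, in CPM scaled by edgeR's TMM factors. They are the largest interactions of their kind within limits on counts and overlap that 329 called gene models met. The largest crossing one with the change in S above that in W was evm.model.chr2.709 on chromosome 2. It had 12.3, 129 and 150.4 CPM in S maturity replicates 1, 2 and 3, 1.66, 1.98 and 0.942 at S pea-size, 11.5, 6.20 and 5.87 at W maturity and 4.15, 17.1 and 15.3 at W pea-size. Every S library was above every W library at maturity and below at pea-size, although replicate 1 exceeded the highest mature W library only narrowly. The interaction was 6.65 (log2, standard error 1.14, edgeR adjusted p = 0.0110), from a change of 5.99 in S (edgeR adjusted p = 0.00168) and -0.65 in W (edgeR adjusted p = 0.834). It was 7.23 without S maturity replicate 1 (edgeR adjusted p = 9.75e-06).

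The largest diverging one in that direction was evm.model.chr11.846 on chromosome 11. It had 19.2, 256 and 284 CPM at S maturity and 6.28, 19.1 and 5.92 at S pea-size. It had 5.65, 2.70 and 2.40 CPM at W maturity and 5.93, 10.7 and 11.1 at W pea-size. The genotypes did not overlap at maturity and did at pea-size, and S maturity replicate 1 was about level with the highest S pea-size library. The gap was 5.75 at maturity and 0.16 at pea-size (log2), and the interaction was 5.59 (standard error 1.20, edgeR adjusted p = 0.0376). This call was lost on leaving out any 1 library other than S pea-size replicate 2 or S maturity replicate 1 (5.14 to 6.07, edgeR adjusted p = 0.0534 to 0.120). Without S maturity replicate 1 the interaction was 6.20 (edgeR adjusted p = 4.46e-05).

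In the other direction, the largest crossing gene model was evm.model.chr3.191 on chromosome 3. It had 0.559, 0.508 and 0.980 CPM at S maturity and 68.7, 77.8 and 108 at S pea-size. It had 7.91, 4.18 and 4.80 CPM at W maturity and 1.19, 2.34 and 3.85 at W pea-size. No library of S overlapped one of W at either stage, with S below W at maturity and far above it at pea-size. The interaction was -8.04 (log2, standard error 0.71, edgeR adjusted p = 0.000163), with a change of -6.90 in S (edgeR adjusted p = 1.97e-05) and a change of 1.14 in W that did not pass the test (edgeR adjusted p = 0.394). Counts in S maturity were low, at 5, 10 and 25 reads. It was -7.88 without S maturity replicate 1 (edgeR adjusted p = 7.38e-06) and stayed between -8.52 and -7.71 over the 20 alternatives that could be fitted, with the call kept in each.

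The largest converging one in that direction was evm.model.chr13.593 on chromosome 13. It had 10.2, 7.32 and 12.0 CPM at S maturity and 395, 214 and 184 at S pea-size. It had 8.13, 4.04 and 8.11 CPM at W maturity, and 0 reads, 1.71 and 6.58 CPM at W pea-size. At maturity the genotypes overlapped, and at pea-size every S library was far above every W library. The gap was 0.54 at maturity and 6.47 at pea-size (log2), and the interaction was -5.92 (standard error 1.19, edgeR adjusted p = 0.0287). Leaving out S maturity replicate 2, W pea-size replicate 2, any 1 S pea-size library or any 1 W maturity library ended the call (-6.18 to -5.53, edgeR adjusted p = 0.0521 to 0.0832). Without S maturity replicate 1 it was -5.85 (edgeR adjusted p = 0.0214), and without W pea-size replicate 3 it was -7.69 (edgeR adjusted p = 0.00379).

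**Figure D5:**
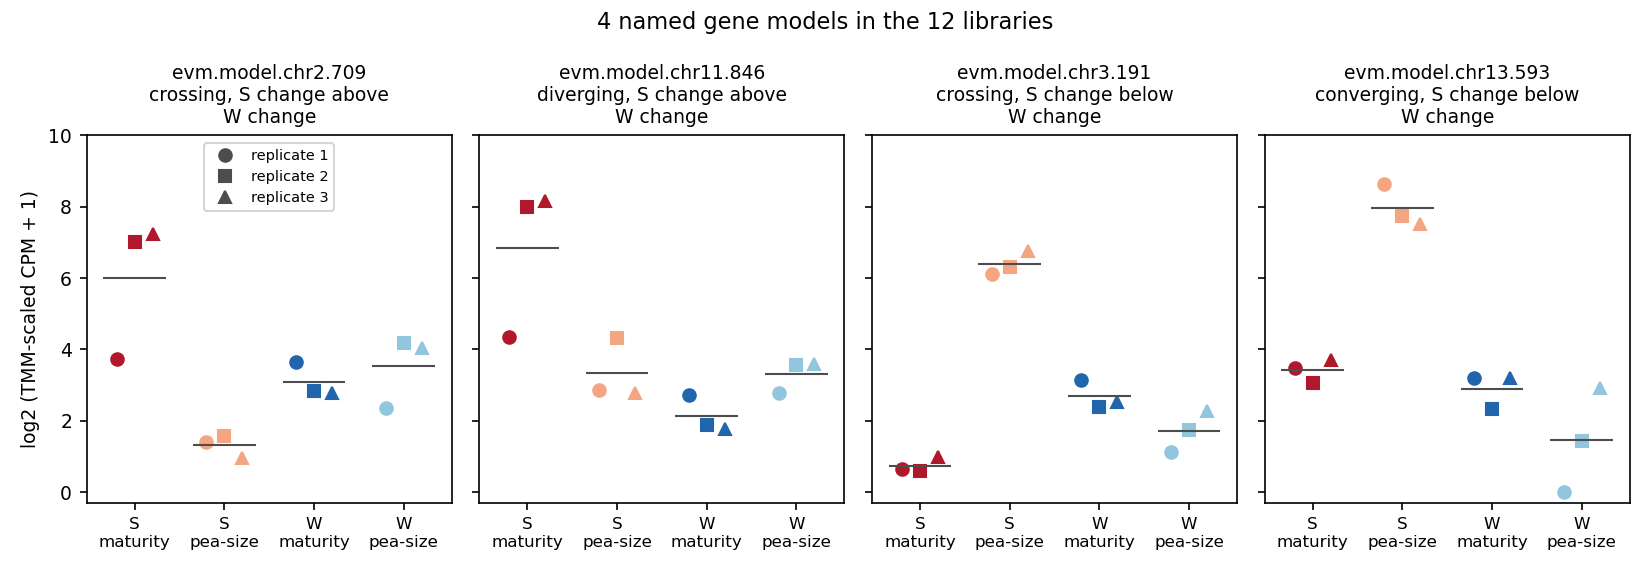
Level of the 4 named gene models in the 12 libraries, log2 (TMM-scaled CPM + 1) on the y axis, with 1 symbol per library and a line at each group mean. In evm.model.chr2.709 and evm.model.chr11.846, S maturity replicate 1 lies well below replicates 2 and 3, while in evm.model.chr3.191 and evm.model.chr13.593 the 3 S maturity libraries lie together.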

How the data were processed

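The authors made directional libraries, aligned trimmed reads to the 'Noble' muscadine genome, dropped likely PCR duplicates and counted the reads that mapped uniquely. The deposited values are whole read counts, used as deposited. Whether counting used strand is not given in the sources used here, so overlapping, antisense and near-identical gene models are uncertain. In each file 5 summary entries were left out of totals and tests. The largest of them, reads that hit no gene model, took 10.6% to 30.4% of a library.

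The 4 groups came from the genotype and developmental stage labels. Gene models were kept by filterByExpr (minimum count 10, minimum total 15), scaled by TMM and fitted in 1 model of all libraries with edgeR's quasi-likelihood test (robust), with 1 mean per group and Benjamini-Hochberg adjustment. Standard errors are the size of the coefficient over the square root of F. Leaving out a library lowers the smallest group the filter uses, so more gene models were tested. Named gene models are, in each direction, the called crossing one and the called diverging (above) or converging (below) one with the largest interaction. They needed a mean of at least 10 counts in each group and 50 over the libraries, and no overlap between genotypes where the gap was open. The contrast, shapes and naming rule were chosen with earlier results of these data known. The p-values measure the spread between 3 biological replicates of a single line per phenotype.

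Alternatives were DESeq2, limma voom with sample quality weights, unadjusted p, other fold thresholds, scaling by DESeq2's size factors or library totals, other filters, the fit without the robust option, replicate blocks, other definitions of an open gap and each library left out. The scripts were tested on simulated data. All replicate pairs differed by more than counting noise (chi-square of at least 11.6 per degree of freedom). Software was edgeR 4.0.16, DESeq2 1.42.0 and limma 3.58.1 under R 4.3.3, with pandas 2.3.3 and matplotlib 3.10.9 under Python 3.11.15. No sequence is shown, since the gene models could not be matched to the reference tables.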

Additional observations from a re-analysis of the deposited data

Results flagged for a closer look

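The stage change differed between S and W, by the interaction test itself, for 186 gene models with the change in S above that in W and for 237 with the change below it. The 4 named gene models among them are listed here for that reason: evm.model.chr2.709 with an interaction of 6.65, evm.model.chr11.846 with 5.59, evm.model.chr3.191 with -8.04 and evm.model.chr13.593 with -5.92 (log2). With 3 libraries a group, no library was tested for standing apart from its group in a single gene model.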

How the results depend on the processing

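The counts of calls depended on the test and on single libraries, while scaling, the filters, the prior spread, shapes from mean log2 (CPM + 1) and a log2 threshold of 0 or 2 kept all 5 counts (above, below, crossing, diverging, converging) within 1.5 times. In that order, DESeq2 gave 656, 546, 368, 410 and 331 at an adjusted p and 1733, 1282, 644, 1133 and 859 at an unadjusted p. Voom with quality weights (0.184 for S maturity replicate 1, 0.46 to 2.31 for the others) gave 1175, 1643, 663, 1410 and 479, and edgeR at an unadjusted p gave 1428, 1151, 583, 931 and 719. With an open gap defined by sign only, 337 were crossing, 43 diverging and 43 converging. At 0.5 there were 255 crossing and 74 converging, and at 2 there were 41 crossing. Leaving out 1 library gave 69 to 844 above, 96 to 1111 below, 68 to 379 crossing, 47 to 1176 diverging and 51 to 275 converging. The total of 423 became 1955 without S maturity replicate 1, and 242 and 270 without replicates 2 and 3. It was 167, 184 and 192 without S pea-size replicates 1, 2 and 3, 176 and 178 without W maturity replicates 2 and 3, and 231, 284 and 589 without W pea-size replicates 1, 2 and 3; the cause was not tested. Scaling by library totals moved the median interaction by -0.12 and the share of calls above to 34%, against 44%.

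Deviations from the group mean had correlations of -0.07 to 0.02 between same-numbered libraries across the stages of a genotype. A check on 3 libraries a group cannot exclude a pairing by number. With the number as a replicate block over all libraries there were 111 above and 81 converging. With a block within each genotype there were 76 above, 142 below, 80 crossing, 54 diverging and 84 converging. The call of evm.model.chr2.709 was lost under the block within genotype (6.03, edgeR adjusted p = 0.0907), and those of evm.model.chr11.846 and evm.model.chr13.593 under both blocks. The call of evm.model.chr11.846 was also lost with no filter (edgeR adjusted p = 0.0600). With at least 10 counts in every library, evm.model.chr3.191 and evm.model.chr13.593 were not tested.

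The share called differed with level: with the gene models tested split into 4 equal sets by level, 0.26% were called in the lowest set and 4.71% in the highest; the cause was not tested.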

Other observations

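With all 12 libraries, the calls were spread over all 20 chromosomes of the annotation, between 1.25% of gene models tested on chromosome 20 (8 of 639) and 3.59% on chromosome 1 (40 of 1114). Chromosome 18, which has the most gene models tested (1462), held 44 (3.01%), of which 30 had the change in S above that in W and 14 below. On chromosome 7 the split was 7 above and 18 below. Of the 423 called gene models, 34 (8.04%) had a called neighbour by number among those tested, against 4.53% of all gene models tested. They formed 18 neighbouring pairs, 15 with the same direction and 12 with the same shape. Neither of these counts has a baseline from other pairs of called gene models, so nothing is read from them.

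Shapes differed with the level of the gene models, as a description with no test. The gene models tested were split into 4 equal sets by mean level. In set 2, counted from the lowest, 38 of the called were crossing, 10 diverging and 16 converging. Set 3 held 55, 33 and 38 in that order. In set 4, the highest, 47 were crossing, 83 diverging and 73 converging. By mean log2 CPM, the median was 4.95 in crossing, 6.24 in diverging and 5.89 in converging gene models. A crossing gene model needs a difference of at least 2 by construction, and the share called was lower at low level. Nothing about the shapes is therefore read from these values.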
